A study of Mus musculus with 4 samples.

Results

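Blood and lymphatic vessels of the lung are lined by endothelial cells (ECs) that differ by vessel type, and 10 genes commonly used to tell these types apart were followed here in lung ECs after pneumonectomy (PNX). Bmx, Sox17, Efnb2 and Fbln5 stand for arteries, Nr2f2, Ephb4, Slc6a2 and Amigo2 for veins, and Prox1 and Mmrn1 for lymphatic vessels. They were found by gene symbol among the 24063 symbols counted, each symbol being represented by its transcript with the most reads. All 10 were present, and all 10 were among the 16208 genes with enough reads to be tested.

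RNA was sequenced from ECs of C57BL6J mice (C57BL6 in the sample labels), 8 weeks old and labelled male, with no transgene or other allele named. In the PNX group, cells were taken 7 days after removal of the left lung, and the other group was sham-operated. CD31 magnetic beads were used to isolate the cells, and each library was pooled from 2 mice, which gave 2 libraries per group and 4 in all. CD31, the product of Pecam1, is also carried by platelets and some leukocytes, so the beads are not specific to ECs, and by the study's methods the isolated cells were checked by FACS for CD31, VE-cadherin and the absence of CD45. Differences below are PNX over sham on the log2 scale, tested with edgeR's quasi-likelihood test on counts and adjusted by the Benjamini-Hochberg method over all genes tested. A gene was said to have risen or fallen at an adjusted p under 0.01, and to have passed the fold threshold as well when its log2 fold change was beyond 1.

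With 1 transcript per symbol, totals ranged from 41367438 to 50952879 counts per library, and over all transcripts from 65763553 to 81282871. Of the former totals, 3 counts, taken as the detection floor, correspond to 0.0589 to 0.0725 CPM (counts scaled to a fixed library total). Replicates lay close to each other, with a mean chi-square per gene of 1.53 to 1.77 within groups against 119 to 134 between groups. The values within groups are not far above that of counting error alone, so little variation between pools of mice is seen. P-values measure only the spread between these libraries, which was not far above counting error, and not the spread between single mice. Of the 44 genes counted on the Y chromosome, 44 had 0 counts in every library, while Xist had 29890 to 36875 counts, so all 4 libraries go against the male label. Since this holds for every library of both groups, no result can be given without them.

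The label of the cells was checked on 12 pan-endothelial genes. Pecam1 had 90418 to 90964 normalized counts as group means (counts scaled to the mean library size) and a log2 fold change of -0.01 (SE 0.015, edgeR adjusted p = 0.636), and Cdh5, the gene for VE-cadherin, fell by 0.22 (SE 0.015, edgeR adjusted p = 8.0e-20). Of the 12 genes, 11 fell and 0 rose, with a median of -0.29 and a range from -0.65 for Clec14a to -0.01 for Pecam1. Their summed level went from between 563327 and 568661 normalized counts in the sham libraries to between 464246 and 465663 in the post-PNX libraries. Markers of alveolar epithelium were abundant in both groups: Sftpc, a surfactant protein gene of alveolar type 2 cells, had 171049 normalized counts in sham and 111050 in post-PNX libraries. Both values exceed those of Pecam1, so the levels below are those of whole libraries and not of ECs alone. In bulk RNA, fewer cells of a type and less RNA of a gene per cell cannot be told apart.

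Arterial, venous and lymphatic ECs acquire their identity early in the growth of the vessels and keep it through signals such as flow, Notch and VEGF. In arteries, Notch and the SoxF transcription factors favour ephrin-B2, the membrane ligand encoded by Efnb2, while veins carry its receptor EphB4 and the orphan nuclear receptor COUP-TFII, encoded by Nr2f2. In lymphatic ECs, which arise largely from veins, Prox1 is the transcription factor that sets and maintains identity. The study concerned pressure and YAP1, a coactivator that binds DNA through TEAD factors, in the lung that regrows after PNX.

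The stretches of 250 bases just before the annotated start of 4 of these genes follow, from RefSeq on GRCm38.p6, 5′ to 3′ on the strand of the gene. Efnb2 and Ephb4 are shown as ligand and receptor, and Amigo2 and Fbln5 because theirs were the largest fall and the largest rise among the 10 genes. Capitals mark matches to short core motifs of TEAD, SOX, RBPJ (the DNA-binding partner of Notch) or COUP-TF factors.
Efnb2 (chr8:8661243-8661492, minus strand): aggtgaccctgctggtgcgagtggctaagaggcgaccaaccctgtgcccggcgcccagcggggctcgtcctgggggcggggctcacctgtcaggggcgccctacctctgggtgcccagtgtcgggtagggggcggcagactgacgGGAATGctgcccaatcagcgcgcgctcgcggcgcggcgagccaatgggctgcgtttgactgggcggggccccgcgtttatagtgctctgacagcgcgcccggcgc
Ephb4 (chr5:137349859-137350108, plus strand): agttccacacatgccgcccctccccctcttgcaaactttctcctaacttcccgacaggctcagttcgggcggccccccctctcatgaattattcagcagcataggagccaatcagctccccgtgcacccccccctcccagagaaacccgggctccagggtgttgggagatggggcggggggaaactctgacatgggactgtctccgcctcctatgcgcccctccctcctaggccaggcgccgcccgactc
Amigo2 (chr15:97247288-97247537, minus strand): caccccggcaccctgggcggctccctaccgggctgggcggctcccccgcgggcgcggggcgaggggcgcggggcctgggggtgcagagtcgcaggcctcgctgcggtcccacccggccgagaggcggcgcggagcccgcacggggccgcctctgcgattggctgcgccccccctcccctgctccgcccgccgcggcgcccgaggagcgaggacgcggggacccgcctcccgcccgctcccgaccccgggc
Fbln5 (chr12:101819120-101819369, minus strand): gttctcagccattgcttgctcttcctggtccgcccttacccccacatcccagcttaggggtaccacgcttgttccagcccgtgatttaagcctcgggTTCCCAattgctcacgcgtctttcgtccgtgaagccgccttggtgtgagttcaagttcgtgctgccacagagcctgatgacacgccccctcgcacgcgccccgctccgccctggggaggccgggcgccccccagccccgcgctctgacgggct

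The letters searched, on both strands, were GGAATG for TEAD, AACAAT for SOX, TGGGAA for RBPJ and AGGTCA for COUP-TF, and none of these overlapped another in the windows of these genes. Of 32851 mouse windows of the same length and position, 12.6% held the TEAD letters, 9.42% the SOX letters, 21.6% the RBPJ letters and 14.02% the COUP-TF letters. Entries were found for 8 of the 10 genes. Efnb2 held 1 TEAD match that began 105 bases before the start, and Fbln5 held 1 RBPJ match on the opposite strand, as TTCCCA, 153 bases before it. Ephb4 and Amigo2 held none. Among the genes whose windows are not printed, Bmx held 1 RBPJ match, Mmrn1 1 SOX and 2 RBPJ matches, the second annotated start of Prox1 1 RBPJ match, and Nr2f2 and the first start of Prox1 none. The Amigo2 window had a GC content of 84% and the Efnb2 window of 72%, against a median of 52.4% over all windows. A match is only a match of letters, and binding was not measured.

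Of the 10 identity genes, 5 rose and 4 fell after PNX, and 1, Amigo2, also passed the fold threshold. Among all genes tested, 57.1% changed at this adjusted p (29.3% higher and 27.8% lower) and 7.56% also passed the fold threshold, 5.9% higher and 1.66% lower, so changes of this size were common in these libraries. The post-PNX and sham values did not overlap for 9 of the 10, which was the case for 81.2% of all genes tested. The median log2 fold change of the 10 genes was 0.08, beside 0.00 over all genes tested. Every class held genes that moved differently: 2 arterial genes rose and 2 fell, 2 venous genes rose and 2 fell, and 1 lymphatic gene rose while the other did not pass.

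**Figure D1:**
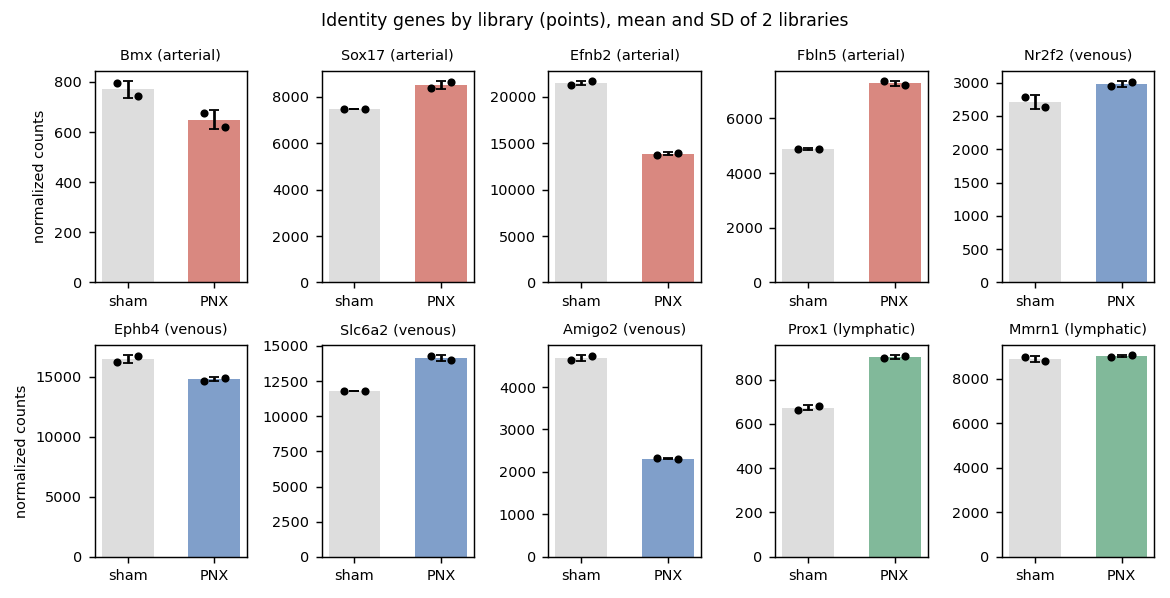
Normalized counts (y axis, linear and starting at 0) of the 10 identity genes in the 2 sham and 2 post-PNX libraries, with points for libraries, bars for group means and error bars for the SD. Efnb2 and Amigo2 show the widest gaps downwards and Fbln5 the widest upwards, and only the points of Mmrn1 overlap between the groups.

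Because 11 of 12 pan-endothelial genes fell, each value was also computed with the libraries scaled to the sum of these 12 genes. This raised the median log2 fold change of all genes tested from 0.00 to 0.28, and with it every value by nearly the same amount. Under this scaling 10020 genes rose and 1281 fell, where 4745 rose and 4513 fell before, and 1385 and 75 also passed the fold threshold, where 957 and 269 did. Of the identity genes, 7 rose and 2 fell. Efnb2 and Amigo2 remained lower, at -0.35 and -0.73, and Amigo2 no longer passed the fold threshold. Bmx and Ephb4 turned direction, to 0.04 (SE 0.062, edgeR adjusted p = 0.574) and 0.13 (SE 0.020, edgeR adjusted p = 7.3e-07). The order of the 10 genes does not depend on the scaling, so Amigo2, Efnb2 and Bmx were at its lower end and Slc6a2, Prox1 and Fbln5 at its upper end under both.

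**Figure D2:**
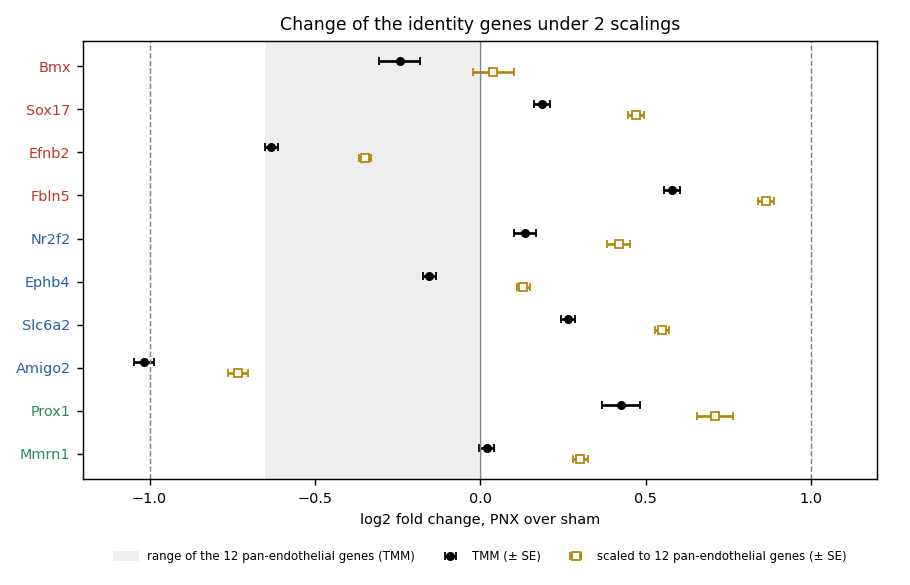
Log2 fold change, PNX over sham, of each identity gene with its SE, under TMM normalization (filled circles) and with libraries scaled to 12 pan-endothelial genes (open squares). The grey band is the range of those 12 genes under TMM (-0.65 to -0.01), the dashed lines mark log2 fold changes of -1 and 1, and Bmx and Ephb4 are the genes whose squares and circles lie on opposite sides of 0.

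Among the arterial genes, Efnb2 (gene at chr8:8617235-8661242) had the highest level per length and fell most. Its protein sits on arterial ECs and meets EphB4 on venous ECs, and it also takes part in sprouting. In sham libraries Efnb2 had 21322 and 21659 normalized counts, and after PNX it had 13734 and 13990. Both post-PNX libraries lay below both sham libraries, and the means went from 21490 ± 239 to 13862 ± 181 (SD, n = 2). It fell by 0.63 on the log2 scale (SE 0.020, edgeR adjusted p = 3.2e-37), a change of -35.5%. That value lies at the lower end of the range of the pan-endothelial genes, near the lowest, Clec14a at -0.65, and below their median of -0.29. Under the pan-endothelial scaling it was -0.35. The general capillary and aerocyte capillary genes described below had medians of -0.55 and -0.40 without that scaling. Whether the fall of Efnb2 was particular to arterial ECs was not tested.

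Sox17 (chr1:4490928-4497426) encodes a SoxF transcription factor needed for arterial differentiation. Its normalized counts were 7483 and 7468 in sham and 8385 and 8639 in post-PNX libraries, without overlap, and the sham pair differed by far less than the post-PNX pair. It rose by 0.19 (SE 0.023, edgeR adjusted p = 2.0e-10), from 7476 ± 10.6 to 8512 ± 180 (SD, n = 2). The 5 transcripts listed for Sox17 gave log2 ratios of the group means of 0.18 to 0.20. Counts of the others were 73.8 to 91.6% of those of the one used. The transcripts appear to share reads, so their likeness is not separate evidence.

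Fbln5 (chr12:101746565-101819119) encodes fibulin-5, a matrix protein needed to assemble elastic fibres, and marks arterial ECs of the lung. It is also made by fibroblasts and smooth muscle cells. The sham libraries had 4859 and 4895 normalized counts and the post-PNX libraries 7347 and 7223, so that both post-PNX libraries lay well above. The means were 4877 ± 25.2 and 7285 ± 87.7 (SD, n = 2), and the rise of 0.58 (SE 0.025, edgeR adjusted p = 1.0e-29) was the largest of the 10 genes. Most, but not all, of the listed markers of the other cells that make fibulin-5 rose too. Of 8 smooth muscle and pericyte genes 7 rose (median 0.44, summed level 24658 to 24923 normalized counts in sham and 32556 to 32671 in post-PNX libraries). Of 7 fibroblast genes, 5 rose and 1 fell (median 2.27, summed level 61442 to 62032 and then 223394 to 224990), and none of either list was at 0. The 5 that rose were the matrix genes Col1a1, Col1a2, Col3a1, Dcn and Lum. Pdgfra fell by 0.23, and Tcf21 was at 0.02 (edgeR adjusted p = 0.677). Their part in the rise of Fbln5 was not tested.

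Bmx (chrX:164192842-164258193), a Tec-family kinase of arterial ECs and of some myeloid cells, had the lowest level per length of the arterial genes. Its libraries had 795 and 745 normalized counts in sham and 677 and 622 after PNX, so the groups did not overlap, although the gap between them was little more than the spread within each. The means were 770 ± 34.9 and 650 ± 39.1 (SD, n = 2), a fall of 0.24 (SE 0.061, edgeR adjusted p = 3.7e-04). The call was lost without PNX replicate 2 (edgeR adjusted p = 0.019) or without sham replicate 1 (0.021), and with DESeq2 (adjusted p = 0.024).

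Among the venous genes, Amigo2 (chr15:97244074-97247287) fell the most of all 10 genes. It encodes an adhesion protein with leucine-rich repeats, first described in neurons, and is used here as a marker of veins. Sham libraries had 4627 and 4732 normalized counts, and post-PNX libraries had 2324 and 2300. The 2 post-PNX libraries were close to each other and far below both sham libraries, with means of 4679 ± 74.5 and 2312 ± 17.1 (SD, n = 2). The log2 fold change was -1.02 (SE 0.031, edgeR adjusted p = 1.1e-37), just past the fold threshold, and leaving out single libraries kept it between -1.03 and -1.0001. The 3 transcripts listed for Amigo2 gave -1.02 to -1.01. Counts of the others were 97.4 to 97.8% of those of the one used. They appear to share most reads, so this is not separate evidence.

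Slc6a2 (chr8:92960470-93001667) encodes the transporter that takes up noradrenaline, which lung ECs clear from the blood and which is otherwise known from sympathetic neurons. Its levels were 11768 and 11785 normalized counts in sham and 14296 and 14000 in post-PNX libraries. Both post-PNX values lay above the sham pair, and the means of 11777 ± 12.7 and 14148 ± 210 (SD, n = 2) gave a rise of 0.26 (SE 0.021, edgeR adjusted p = 8.6e-18). The sympathetic genes Th and Dbh, which make enzymes of noradrenaline synthesis, were at or near 0 in both groups: Th had 0 counts in each library and Dbh at most 1. Among the sympathetic genes 2 could be tested, and neither changed at the threshold. Both had low counts, with sham and post-PNX means of 21.8 and 25.9 normalized counts for Phox2a and 69.7 and 53.4 for Ddc. The part of nerve cells in the level of Slc6a2 was not tested. Slc6a2 and Amigo2, both markers of venous ECs, thus moved in opposite directions under both scalings.

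Ephb4 (chr5:137350109-137374522), the receptor of ephrin-B2, fell by 0.15 (SE 0.020, edgeR adjusted p = 8.8e-10), which turned to 0.13 under the pan-endothelial scaling. The 4 libraries had 16252 and 16728 normalized counts in sham and 14682 and 14947 after PNX. The groups did not overlap, and the means were 16490 ± 337 and 14814 ± 188 (SD, n = 2).

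Nr2f2 (chr7:70351946-70366746), whose product COUP-TFII represses Notch signalling in veins and is also made by lymphatic ECs and mesenchymal cells, had the smallest change among those that passed. Its normalized counts were 2785 and 2636 in sham and 2947 and 3015 in post-PNX libraries. Both post-PNX values lay above the higher sham value, and the means were 2711 ± 106 and 2981 ± 48.1 (SD, n = 2), a rise of 0.13 (SE 0.033, edgeR adjusted p = 3.2e-04). Without sham replicate 2 it no longer passed (edgeR adjusted p = 0.022), nor did it with DESeq2 (adjusted p = 0.019). Its second transcript gave a log2 ratio of means of 0.10, beside 0.14 for the one used. The second held 94.8% of the counts of the first in sham and 92.5% in post-PNX libraries, and the 2 appear to share reads.

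Of the lymphatic genes, Prox1 (chr1:190118035-190170827) rose and Mmrn1 did not pass. Sham libraries held 664 and 680 normalized counts of Prox1, and post-PNX libraries 896 and 908. Pairs were tight and far apart, with means of 672 ± 11.2 and 902 ± 8.43 (SD, n = 2) and a rise of 0.43 (SE 0.057, edgeR adjusted p = 1.6e-09). Prox1 is also made by cardiomyocytes, whose cuffs surround pulmonary veins in the mouse. Of 7 cardiomyocyte genes 2 rose (Tnnt2 by 1.01 and Myl7 by 0.88), 0 fell and 5 did not pass. The 2 that rose had low counts, with sham and post-PNX means of 22.7 and 45.3 normalized counts for Tnnt2 and 32.4 and 60.8 for Myl7. Those that did not pass ranged from Myh6 at -0.62 (edgeR adjusted p = 0.095) to Actc1 at 0.13 (edgeR adjusted p = 0.132). The median of the list was 0.02, none was at 0, and the summed level was 801 to 846 normalized counts in sham and 879 to 887 in post-PNX libraries. The part of these cells in the rise of Prox1 was not tested.

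Mmrn1 (chr6:60944317-60989378) encodes multimerin-1, a large protein stored in platelets and in ECs that marks lymphatic ECs. It had 9004 and 8816 normalized counts in sham and 8999 and 9060 in post-PNX libraries, which overlap. The means of 8910 ± 133 and 9030 ± 43.5 (SD, n = 2) gave a log2 fold change of 0.02 (SE 0.022, edgeR adjusted p = 0.470), which does not show that the levels were equal. Under the pan-endothelial scaling it rose by 0.30 (SE 0.023, edgeR adjusted p = 2.2e-13), close to the shift of all genes. Of 7 platelet and megakaryocyte genes, 4 rose, 0 fell and 3 did not pass (median 0.27, summed level 2721 to 2831 normalized counts in sham and 4043 to 4073 in post-PNX libraries). They ranged from Gp9 at 0.20 to Pf4, the gene for platelet factor 4, at 1.34, which stood apart from the next, Gp1bb at 0.85. None was at 0, and their part in the level of Mmrn1 was not tested.

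Ratios of 2 genes within a library do not depend on how libraries are scaled, and were taken from the deposited FPKM values, which are per length of transcript. The ratio of Efnb2 to Ephb4, ligand over receptor, was 1.32 and 1.31 in the sham libraries and 0.945 in each post-PNX library. The ligand was therefore above its receptor per length in both sham libraries and below it in both post-PNX libraries. Efnb2 over Sox17 went from 2.69 and 2.73 to 1.54 and 1.53, and Sox17 over Bmx from 6.95 and 7.40 to 9.14 and 10.3. Among venous genes, Slc6a2 over Amigo2 went from 1.35 and 1.32 to 3.26 and 3.22, the widest of these 6 shifts, and Ephb4 over Nr2f2 from 5.64 and 6.14 to 4.82 and 4.79. Mmrn1 over Prox1 went from 12.1 and 11.6 to 8.96 and 8.91. In all 6 ratios the 2 groups did not overlap, but neither did they for 81.2% of all genes tested when taken singly. The share among ratios of other pairs of genes was not computed, so this count is not a result about these pairs. With 2 libraries against 2, an exact two-sided permutation test of a single ratio cannot go below p = 0.333, and none was run.

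**Figure D3:**
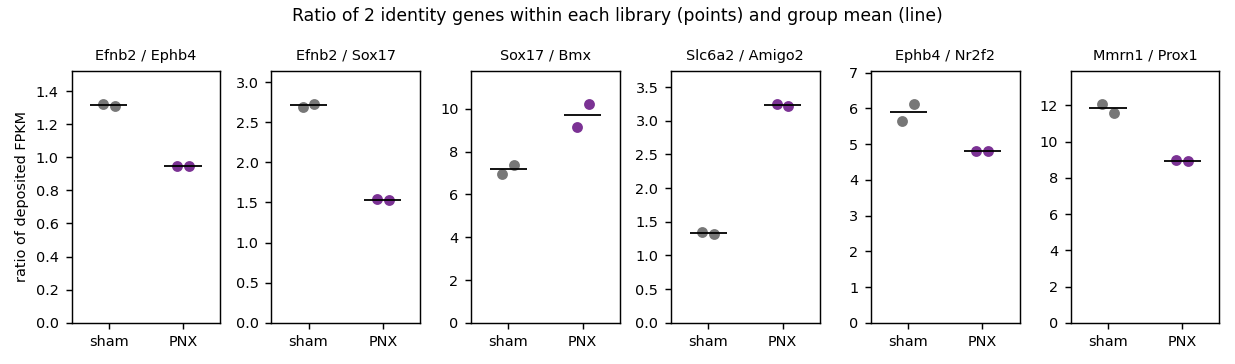
Ratio of the deposited FPKM values of 2 identity genes (y axes, linear and starting at 0) in each sham (grey) and post-PNX (purple) library, with a line at the group mean. Ratios that share a gene share its error, and in each panel the points of the 2 groups are apart, most of all for Slc6a2 over Amigo2.

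By FPKM, the order of levels in the sham group was Efnb2 (67.6), Ephb4 (51.4), Slc6a2 (26.3), Mmrn1 (26.1), Sox17 (24.9), Amigo2 (19.8), Fbln5 (11.2), Nr2f2 (8.73), Bmx (3.48) and Prox1 (2.21), as means of 2 libraries. The neighbours Slc6a2 and Mmrn1 overlapped in their libraries and the others did not. In the post-PNX group Ephb4 (46.4) stood above Efnb2 (43.8), Sox17 (28.6) above Mmrn1 (26.6), Fbln5 (16.9) above Amigo2 (9.83) and Prox1 (2.98) beside Bmx (2.95), and of all neighbours only the last pair overlapped. Slc6a2 (31.8) stayed in the third place and Nr2f2 (9.66) in the eighth.

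**Figure D4:**
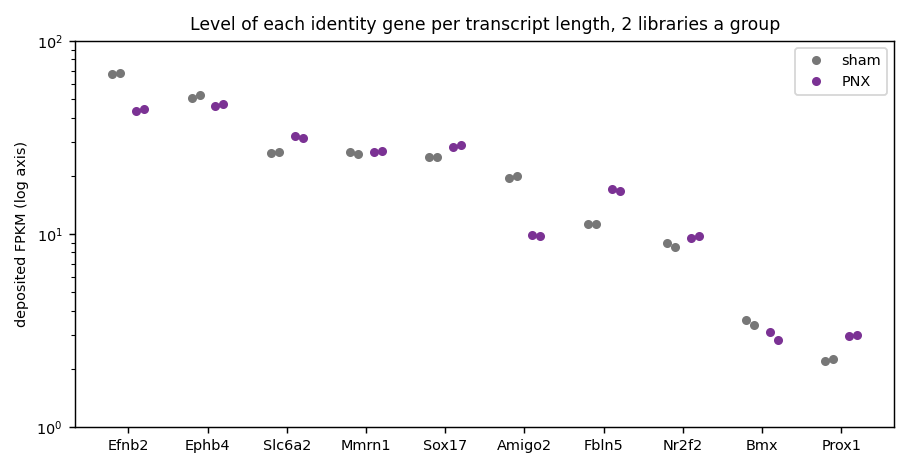
Deposited FPKM (log axis) of the 10 identity genes, ordered by their level in the sham libraries, with 1 point for each sham (grey) and post-PNX (purple) library. The largest drops are those of Efnb2 (67.6 to 43.8) and Amigo2 (19.8 to 9.83), and Bmx and Prox1, the lowest, meet after PNX.

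The relatives of these genes were followed as families. In the ephrin-B and EphB family, 4 of 8 genes rose and 3 fell at the threshold. The ligand Efnb1 fell by 0.65 (SE 0.022, edgeR adjusted p = 3.8e-35), close to Efnb2, with 11468 and 11668 normalized counts in sham and 7349 and 7372 after PNX. The receptors Ephb1 and Ephb2 rose by 1.30 and 1.75 and passed the fold threshold. Ephb2 had 31.7 and 32.6 normalized counts in sham and 122 and 93.6 in post-PNX libraries. In the SoxF family Sox18 rose by 0.17, close to Sox17, whereas Sox7 fell by 0.26, a direction lost under the pan-endothelial scaling (0.02). The COUP-TF relatives were at 0.22 for Nr2f6, which rose, and at 0.06 for Nr2f1 (edgeR adjusted p = 0.628).

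Among Tec kinases, Tec and Btk rose by 0.24 each, and Txk was at -0.42 (edgeR adjusted p = 0.0105). Of 7 fibulins, 5 including Fbln5 rose and Hmcn1 fell by 0.21, turning to 0.08 under the pan-endothelial scaling. Fbln2 and Fbln7 rose by 1.48 and 1.12 and passed the fold threshold, while Efemp1 was at -0.06 (edgeR adjusted p = 0.031). Fbln2 had 2006 and 1974 normalized counts in sham and 5554 and 5520 in post-PNX libraries. Amigo1 fell by 0.44 and Amigo3 was at 0.15 (edgeR adjusted p = 0.230). The serotonin transporter Slc6a4, the relative of Slc6a2 found in lung ECs, was at 0.13 (edgeR adjusted p = 0.041), and the dopamine transporter Slc6a3 was at or below the floor of 3 counts in each library. Prox2 was at -0.06 (edgeR adjusted p = 0.664). Of the EMILIN and multimerin genes, the EC-specific Mmrn2 was at 0.01 (edgeR adjusted p = 0.751), as close to 0 as Mmrn1, and the matrix genes Emilin1 and Emilin2 rose by 0.76 and 1.73, Emilin2 past the fold threshold. Emilin3 had too few counts to be tested.

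Wider lists of the same 3 identities were mixed as well. Beside each of them, 29.3% of all genes tested rose and 27.8% fell, and under the pan-endothelial scaling 10020 of 16208 rose and 1281 fell. Of 14 further arterial genes 5 rose and 8 fell, with a median of -0.11, beside 0.00 over all genes tested and 0.18 for the list under the pan-endothelial scaling, where 9 rose and 4 fell. Mecom, a transcription factor of arterial ECs, fell by 0.62, from 1737 and 1752 to 1084 and 1185 normalized counts. Hey1, a target of Notch, fell by 0.47, from 8723 and 8682 to 6273 and 6249. On the other side, Gja4, the gap junction protein connexin 37, rose by 0.61, from 5081 and 5128 to 7872 and 7682. Dkk2, an inhibitor of Wnt signalling, rose by 1.13 and passed the fold threshold at low counts, 50.7 and 49.96 against 112 and 108.

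Of 10 further venous genes 7 rose and 3 fell, with a median of 0.41 (0.70 under the pan-endothelial scaling, where 8 rose and 2 fell). Selp, the leukocyte adhesion receptor P-selectin, which platelets also hold, rose by 1.14, from 848 and 880 to 1923 and 1890 normalized counts. Ackr1, a chemokine receptor of venules, rose by 1.54, from 41.7 and 57.1 to 132 and 154, and both passed the fold threshold. The carbonic anhydrase relative Car8 and the protease gene Prss23 fell by 0.55 each. Prss23 went from 12277 and 12117 to 8195 and 8501, without overlap. Fibroblast, macrophage and mesothelial genes had medians of 2.27, 1.82 and 1.08, and pan-endothelial genes of -0.29. The part of cells other than venous ECs in these values was not tested.

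Of 11 further lymphatic genes 10 were tested, of which 3 rose and 2 fell, with a median of 0.08 (0.36 under the pan-endothelial scaling, where 7 rose and 2 fell), and Ccl21a, whose reads near-identical copies may share, was at or below 3 counts in each library. Lyve1, the hyaluronan receptor of lymphatic vessels, also made by some lung capillary ECs and macrophages, fell by 1.14 and passed the fold threshold. It went from 44912 and 44530 normalized counts in sham to 20130 and 20338 in post-PNX libraries, a wide gap. Gata2, a transcription factor of lymphatic valves and of other ECs, fell by 0.63, while Maf rose by 0.74 and Pdpn, a membrane protein also of alveolar type 1 and mesothelial cells, by 0.39. Maf and Lyve1 are also made by macrophages, and macrophage genes rose in 6 of 6 tested (median 1.82, summed level 19892 to 20182 normalized counts in sham and 46755 to 46960 in post-PNX libraries, none at 0). Mesothelial genes rose in 7 of 7 (median 1.08, 11672 to 11802 and then 24292 to 24710, none at 0). Their part in these values was not tested.

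Capillary genes, which make up most of lung endothelium, were lower on balance. Of 8 aerocyte genes 3 rose and 5 fell (median -0.40), and of 8 general capillary genes 1 rose and 6 fell (median -0.55), in both cases with medians below 0 under the pan-endothelial scaling too (-0.11 and -0.26). Edn1, the gene for the vasoconstrictor endothelin-1, fell by 1.24, from 14489 and 14577 to 6095 and 6211 normalized counts, and passed the fold threshold. Alveolar epithelial genes fell in 8 of 8 (median -0.66), their summed level going from 347173 and 348948 to 227304 and 226925 normalized counts.

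**Figure D5:**
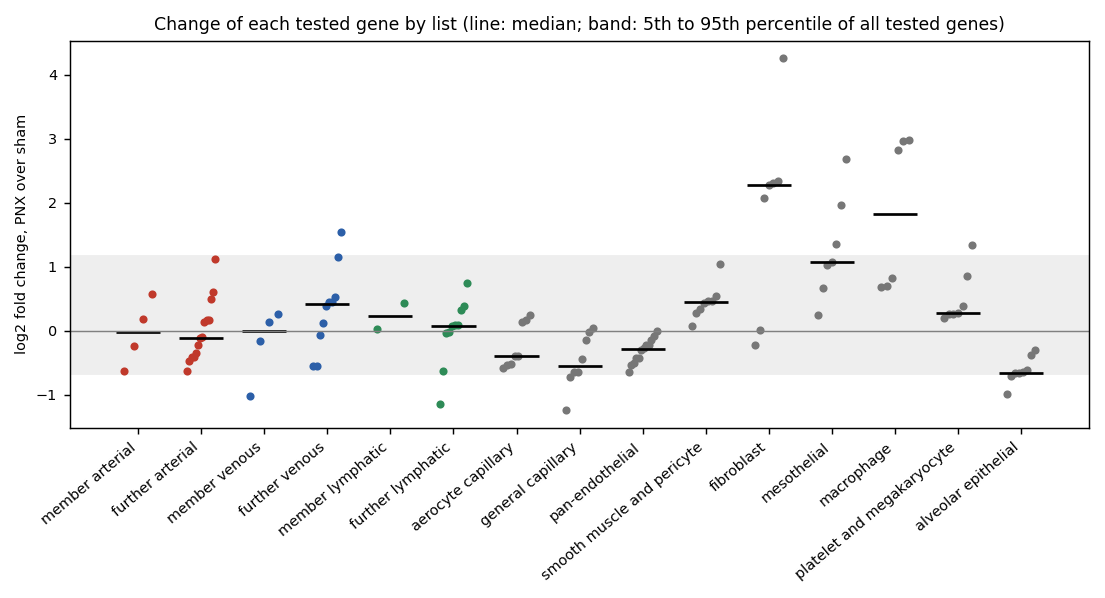
Log2 fold change, PNX over sham, of each tested gene (points) by list, with a line at the median of the list and a grey band from the 5th to the 95th percentile of all genes tested (-0.68 to 1.17). The arterial, venous and lymphatic lists spread on both sides of 0, the capillary, pan-endothelial and alveolar epithelial medians lie below it, and the fibroblast, mesothelial and macrophage medians lie above.

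Reads of 5 identity genes may be shared with a gene on the other strand. By the GENCODE annotation, exons of Sox17, Nr2f2, Ephb4, Amigo2 and Prox1 overlap those of Gm37587, B130024G19Rik, Zan, Pced1b and Prox1os, each on the opposite strand. The libraries were made with a stranded kit, but whether counting used the strand is not given in the sources used here, so reads of such pairs cannot be told apart.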

How the data were processed

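The authors deposited, for each of 4 libraries, whole-number counts of reads on 33068 RefSeq transcripts, with no normalization, and FPKM values per transcript, scaled to length and library total. The kit (TruSeq Stranded mRNA) keeps the strand, reads were paired, and the genome was mm10. The submitters' processing notes name STAR without a version, the counting program is not given in the sources used here, and the authors had FPKM and differential expression computed with DESeq2. TPM values were not used, and protein sequences were not used here.

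Each symbol was represented by the transcript whose counts, summed over the 4 libraries, were highest. Tests ran in R 4.3.3 with edgeR 4.0.16 (filterByExpr, TMM, quasi-likelihood F test without covariates), Benjamini-Hochberg adjustment covered 16208 genes, and the thresholds, an adjusted p of 0.01 and a log2 fold change of 1, are those of the study's methods. The SE is the size of the log2 fold change divided by the square root of F. Counts divided by the TMM-adjusted library size and multiplied by its mean are called normalized counts (factors 0.998 to 1.003). The floor of 3 counts covers counting error only. The script was tested on simulated data. DESeq2 1.42.0 was an alternative.

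The members and the 26 lists were chosen with earlier results of these data known. Named from the lists were genes past both thresholds, the 2 highest and 2 lowest of each identity list and family, Pecam1 and Cdh5. Other genes named were chosen after their values were seen. Alternatives were other scalings, other filters on low counts, summed transcripts, DESeq2, an adjusted p of 0.05, a replicate block and leaving out each library. GENCODE gave gene places and overlaps, and RefSeq windows were searched for 4 motifs. Values of some list genes are not reported here.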

Additional observations from a re-analysis of the deposited data

How the results depend on the processing

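Scaling to the 12 pan-endothelial genes moved most. Under it 10020 genes rose and 1281 fell at the adjusted p, 75 genes were lower past the fold threshold, 0 identity genes passed that threshold and 2 were lower. Bmx and Ephb4 turned to 0.039 and 0.13, and Mmrn1 passed at 0.30. With a filter of at least 50 counts on average, 160 genes were lower past the fold threshold, against 269, since fewer genes were tested. With DESeq2's own test 7 identity genes passed and Bmx and Nr2f2 did not. The other scalings, filters and summed transcripts left all 10 identity genes on their side of the threshold and in their direction.

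Leaving out each library in turn, 8 to 9 identity genes passed the adjusted p, 4 to 5 of them higher and 3 to 4 lower, and 1 passed the fold threshold. Over all genes these fits gave 1118 to 1185 genes past the fold threshold (893 to 928 higher and 225 to 268 lower) and 7994 to 8441 past the adjusted p (4142 to 4317 higher and 3852 to 4124 lower). Where a group had 1 library left, it was assumed to vary like the other group. With the replicate number as a block, 9 identity genes passed the adjusted p and 1 the fold threshold, with 9441 and 1229 genes in all. Libraries of the same number came from different mice and their deviations correlated at 0.023, so the numbers do not pair them.

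For the list counts and medians, 44 of 81 moved under the pan-endothelial scaling, and at most 10 under any other setting.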
